A study of Mus musculus with 9 samples.

Results

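Tumour cells grown as spheroids with bone-marrow monocytes were compared with the same tumour cells grown alone, across all genes of the deposited table of normalised values. The 6 libraries used, 3 for each condition, were chosen by their labels from the 9 libraries of the series. The remaining 3 libraries, tumour cells grown with TRMs (lung tissue-resident macrophages, which the design text equates with alveolar macrophages), enter a side comparison at the end. KP-GFP cells are mouse tumour cells that carry green fluorescent protein, and the labels give the source as KP tumour and the strain as C57BL/6. The cells of all groups were first grown in RPMI medium with serum; KP is not spelled out, and no genotype is given in the sources used here. The design text speaks of Matrigel co-cultures and the protocol of round-bottom plates to which cells do not attach. Spheroids were started from 2500 tumour cells, either without other cells, with 5000 monocytes or with 5000 TRMs, and were kept for 7 days. Pools of 32 spheroids per condition were broken up in 20 min at 37 °C, and GFP-positive cells were sorted, so each library averages over a pool. Between 20000 and 170000 sorted cells gave the RNA, and 1 ng of it was made into cDNA with SMART-Seq v4, a kit for low input. Nothing says that the replicates came from separate cultures, so a p-value here speaks only to the spread among the libraries, which may be technical. The question was how the tumour cells themselves differed after a week with monocytes. Mitosis, DNA replication, glycolysis and epithelial junctions are set aside here, and the text describes the other programmes.

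Monocytes leave the blood, enter tumours and mature there into macrophages, which release proteases, growth factors and cytokines. Carcinoma cells in contact with such cells, or with a changed matrix, can alter their matrix production, their cytoskeleton and the transcription factors that hold the epithelial state. Much of this regulation runs through receptor tyrosine kinases, integrins and hypoxia-inducible factors, each with its own targets and feedback inhibitors.

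The libraries held 16001895 to 32771448 recovered reads. In a principal component analysis of all 9 libraries, monocyte replicate 3 stood apart on the second component, at -75.8 against -32.9 to 50.2 for the others. The GFP gate should remove monocytes and their progeny. Of 21 macrophage markers 11 were tested, with 1 higher (3 without alone replicate 2) and 2 lower, and of 19 monocyte markers 13, with 1 higher and 2 lower. The lower macrophage calls were 1 without any one library grown alone, monocyte replicate 1 or TRM replicate 2, and the lower monocyte calls were 0 without alone replicate 1, alone replicate 3 or monocyte replicate 1 and with edgeR, and 1 without alone replicate 2, monocyte replicate 2, monocyte replicate 3 or TRM replicate 3. Adgre1, a surface receptor of macrophages, was not in the table used here. The summed level of the macrophage markers was 110 to 165 in tumour cells alone and 176 to 232 with monocytes, and that of the monocyte markers was 2709 to 3798 and 3461 to 3601. Of the marker lists, Fn1, Spi1, Cd68 and Lyz2 are named after their values were seen. The monocyte marker sum includes Fn1 (fibronectin), which measured 2648, 2523 and 3521 alone and 3309, 3310 and 3344 with monocytes. Csf1r, the receptor of macrophage growth factor, measured 2.25, 3.78 and 3.02 alone and 2.95, 3.54 and 3.64 with monocytes, and Spi1, the myeloid master factor, 0.335, 0.521 and 0.586 and 1.00, 0.188 and 1.03. Cd68 was likewise low, at 0.959, 1.20 and 0.976 and 2.62, 1.11 and 0.231. Epithelial keratins stayed abundant, with Krt8 at 4929, 4119 and 4901 alone and 3386, 3908 and 4868 with monocytes (adjusted p = 0.427). In these bulk libraries, fewer cells of a type and less RNA per cell cannot be told apart.

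Of 12326 genes tested, 3366 (27.3%) passed an adjusted p of 0.05 in limma's moderated test. They divided into 1806 higher (14.7%) and 1560 lower (12.7%) with monocytes. The groups did not overlap for 4986 genes (40.5%). Outside the 4 lists set aside, 3164 genes were called, 1633 higher and 1531 lower. The total fell to 2239 without alone replicate 3, and it was 3529 without monocyte replicate 3. The median log2 difference of all genes was -0.02. Values below are normalised CPM, read counts scaled by the authors to a common library size, listed for replicates 1 to 3, and differences are monocyte co-culture minus alone on the log2 scale with limma's standard error. The plot of calls by gene list sets each list beside the shares for all genes.

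**Figure D1:**
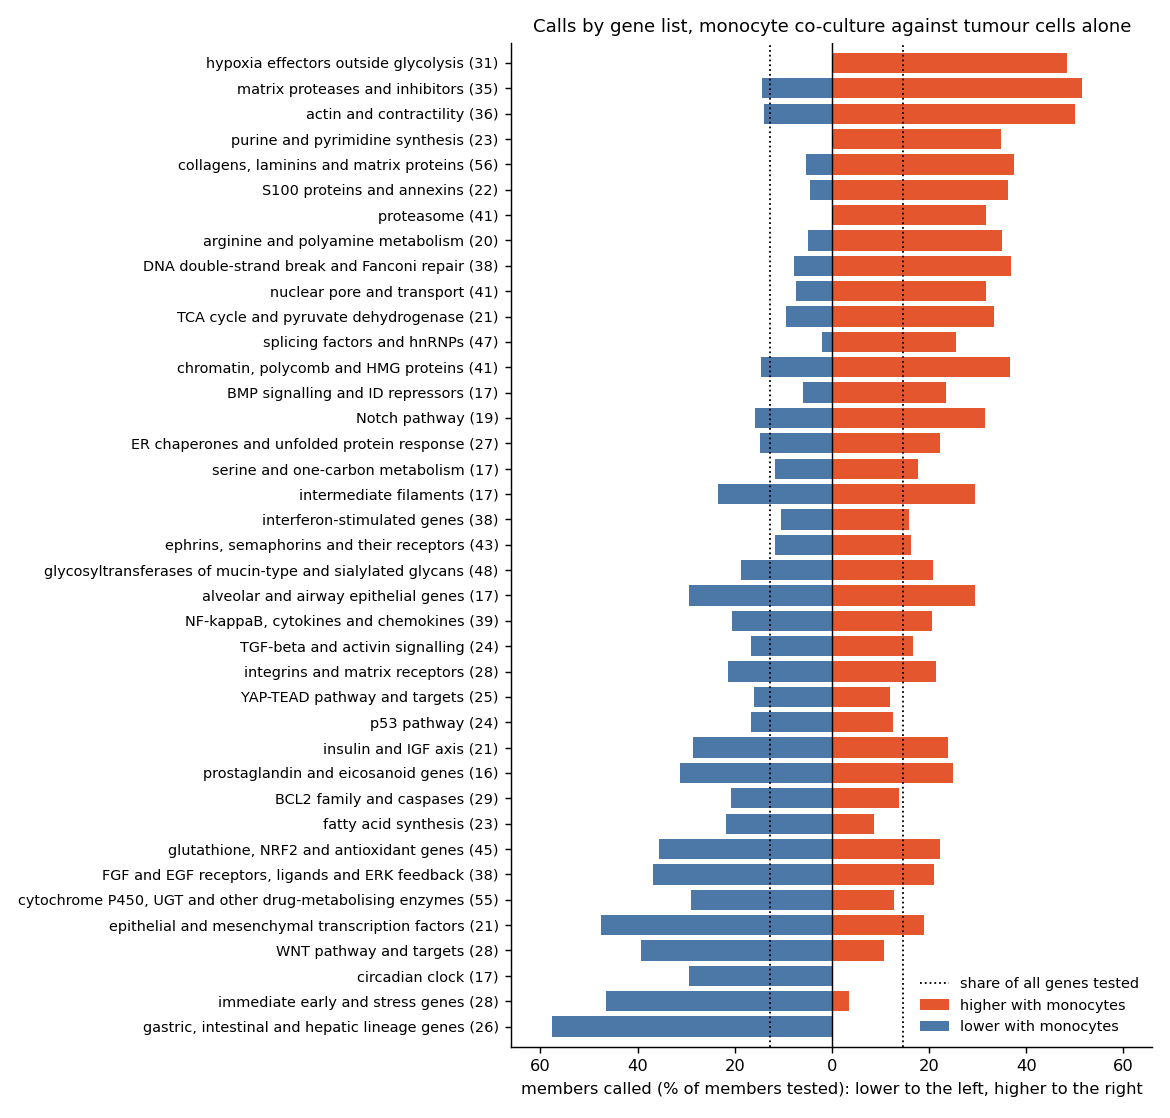
Share of tested members called higher (orange, right) or lower (blue, left) with monocytes, in percent, for the immediate early list and the 38 other lists with at least 15 members tested and at least 25% called; numbers in brackets are members tested and dotted lines mark all genes (14.7% higher, 12.7% lower). Matrix proteases had 51.4% higher and the gastric, intestinal and hepatic list 57.7% lower.

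The genes with the smallest p values make a mixed group. Add2, a subunit of adducin that caps actin filaments under the membrane, measured 23.7, 27.2 and 22.1 alone and 131, 149 and 118 with monocytes. The groups lay far apart with little spread, and the difference was 2.44 on the log2 scale (SE 0.17, adjusted p = 4.95e-06). Cdh15, a cadherin known from muscle cells, rose from 0.825, 1.11 and 0.916 to 15.1, 10.7 and 11.2, a difference of 3.69 on the log2 scale (SE 0.29, adjusted p = 7.77e-06). Aqp8, a water and hydrogen peroxide channel, rose from 1.14, 2.69 and 1.04 to 43.6, 38.1 and 30.1, 25.1-fold higher. Rasa4, a RAS GTPase-activating protein, rose 6.45-fold and Nptx1, a neuronal pentraxin, 5.71-fold. In the other direction, Tfcp2l1, a transcription factor of the grainyhead family, fell 5.78-fold. Exph5, an effector of RAB27, fell 6.89-fold, and Mtss1, a membrane-bending protein, 3.12-fold. Akap13, an anchor protein of protein kinase A, fell 2.65-fold and Dock4, a RAC activator, 3.18-fold.

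Outside the lists set aside, matrix proteases and their inhibitors had the largest share called higher of the lists counted. Of 35 tested proteases and inhibitors, 18 were higher (51.4%, beside 14.7% of all genes) and 5 lower (14.3%, near the 12.7% of all genes). The median log2 difference was 0.58, beside -0.02 for all genes. Of the higher and lower calls, 14 and 2 were kept in all 18 alternatives. When alone replicate 1, alone replicate 3 or monocyte replicate 1 was left out, 2 were lower. The secreted metalloproteinases Mmp3, Mmp10 and Mmp13 lie together on chromosome 9 and are shown first because they rose together. The 250 bases before each RefSeq start (GRCm38.p6), read on the gene's strand, are given with letters matching TGANTCA, the AP-1 site, in capitals.
Mmp3: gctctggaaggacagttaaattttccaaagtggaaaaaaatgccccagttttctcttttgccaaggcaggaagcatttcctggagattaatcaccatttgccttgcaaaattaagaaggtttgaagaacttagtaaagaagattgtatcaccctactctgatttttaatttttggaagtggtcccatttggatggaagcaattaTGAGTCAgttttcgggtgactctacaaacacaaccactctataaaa
Mmp10: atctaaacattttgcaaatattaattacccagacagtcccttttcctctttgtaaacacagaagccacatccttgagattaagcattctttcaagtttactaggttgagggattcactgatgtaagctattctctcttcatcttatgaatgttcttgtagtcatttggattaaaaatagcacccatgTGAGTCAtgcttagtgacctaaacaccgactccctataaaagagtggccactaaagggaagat
Mmp13: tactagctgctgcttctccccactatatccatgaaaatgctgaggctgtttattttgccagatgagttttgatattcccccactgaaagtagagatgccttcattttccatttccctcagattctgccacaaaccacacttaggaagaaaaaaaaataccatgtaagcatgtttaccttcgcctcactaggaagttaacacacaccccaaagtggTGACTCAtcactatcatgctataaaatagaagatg
These stretches are chr9:7445572-7445821, chr9:7502092-7502341 and chr9:7272264-7272513, all plus strand. The match begins 46 bases before the start of Mmp3, 63 before that of Mmp10 and 35 before that of Mmp13. Searched on both strands in windows from 250 bases before to 50 after a start, the site was in 4 of 8 windows of the metalloproteinases called higher, which come from 7 of those 9 genes. Over the whole list it was in 6 of 14 windows (42.9%) of the proteases and inhibitors called higher. It was in 715 of 12518 windows of all genes tested (5.71%). In all, 10 motifs were searched in 10 gene sets, and the motifs and genes shown were picked from them. A match is a description of the letters only.

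Mmp3, stromelysin-1, which cleaves proteoglycans and activates other metalloproteinases, measured 12.5, 67.4 and 13.4 in tumour cells alone and 797, 652 and 373 with monocytes. Every monocyte library was above every library grown alone, and alone replicate 2 was the highest of its group. The difference was 4.69 on the log2 scale (SE 0.50, adjusted p = 3.61e-05), and 5.48 without alone replicate 2. Mmp10, stromelysin-2, rose from 7.70, 7.18 and 4.91 to 43.8, 30.1 and 30.6, a difference of 2.41 on the log2 scale (SE 0.24, adjusted p = 3.11e-05). Mmp13, collagenase-3, which cuts fibrillar collagen, rose from 15.9, 20.2 and 13.6 to 70.8, 82.3 and 41.2, 3.81-fold higher. These groups did not overlap. In GENCODE M21 (GRCm38), Mmp13 spans chromosome 9, 7272514 to 7283331, plus strand, Mmp3 chromosome 9, 7445822 to 7455975, plus strand, and Mmp10 chromosome 9, 7502352 to 7510240, plus strand. Timp1, an inhibitor of metalloproteinases, rose in the same libraries, from 4.44, 7.31 and 5.21 to 30.6, 23.7 and 24.3 (4.70-fold).

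Members of this list that act at the cell surface did not all move that way. Plaur, the urokinase receptor, which gathers plasminogen activation at the membrane, measured 593, 771 and 654 alone and 299, 308 and 297 with monocytes. It fell 2.22-fold, with groups that did not overlap (adjusted p = 0.000181). Mmp15, a membrane-bound metalloproteinase, fell from 344, 226 and 316 to 150.5, 101 and 146, 2.23-fold lower. Mmp9, gelatinase B, which macrophages also make, measured 0.156, 0.159 and 0.856 and 34.7, 7.14 and 3.98. Its difference of 5.17 was called (adjusted p = 0.00043) but lost its call with limma-voom (adjusted p = 0.0748), and monocyte replicate 1 was far above the other libraries. Leaving out monocyte replicate 1 gave 4.27, leaving out monocyte replicate 3 gave 5.83 and leaving out alone replicate 3 gave 5.98. Mmp12, macrophage elastase, measured 0.870, 0.0226 and 0.436 and 6.62, 8.19 and 4.86, a difference of 4.97 on the log2 scale (SE 1.06, adjusted p = 0.00383). The libraries grown alone held 33 reads of Mmp12 and 34 of Mmp9 together, so both folds are imprecise. Without alone replicate 1 the difference of Mmp12 was 6.01, and without alone replicate 2 3.38. Whether residual monocyte-derived cells contributed to Mmp9 and Mmp12 was not tested.

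Structural matrix genes were more often higher than lower, though most did not pass the test. Of 56 tested collagens, laminins and other matrix proteins, 21 were higher, 3 lower and 32 did not pass, with a median of 0.47, and 18 of the higher calls held in every alternative. Without alone replicate 1, 2 or 3 none were lower, against 3 with all libraries, and 1 was without monocyte replicate 1 or 2, with edgeR or with limma-voom. Col6a1, a chain of the microfibrillar collagen VI, measured 35.3, 75.1 and 63.9 alone and 737, 884 and 399 with monocytes. The groups were separated by a wide gap, and the difference was 3.53 on the log2 scale (SE 0.32, adjusted p = 1.49e-05). Its partner chain Col6a2 rose from 25.4, 33.5 and 36.9 to 338, 444 and 194, 9.76-fold higher. The 2 genes lie near each other on the minus strand of chromosome 10, at 76708792 to 76726168 and 76595762 to 76623630. Col18a1, a basement membrane collagen and the source of endostatin, rose from 295, 454 and 369 to 2118, 1881 and 1232 (4.63-fold). Ecm1, a secreted glycoprotein that binds matrix components, rose from 124, 158 and 127 to 671, 531 and 401, a difference of 1.95 on the log2 scale (SE 0.18, adjusted p = 1.97e-05). In all 4 genes monocyte replicate 3 was the lowest of the monocyte libraries and still above every library grown alone.

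Receptors for matrix were divided. Of 28 tested, 6 were higher and 6 lower (21.4% each, beside 14.7% and 12.7% of all genes). The lower count was 1 without alone replicate 1 or 3 and 3 without monocyte replicate 1 or 2. Itga5, the alpha chain of the fibronectin receptor, rose from 36.8, 81.9 and 50.9 to 439, 312 and 192 (5.55-fold, adjusted p = 0.000187). Itgb3, a beta chain of vitronectin and osteopontin receptors, rose from 66.7, 81.5 and 83.1 to 236, 347 and 192, and Itgb5, a related chain, rose 2.28-fold. Itgb6, the beta chain of an epithelial integrin that activates latent TGF-beta, went the other way, from 62.6, 40.4 and 67.6 to 12.5, 15.6 and 30.4. Its groups did not overlap and the difference was -1.62 on the log2 scale (SE 0.32, adjusted p = 0.00221). These 4 integrin genes kept their calls in all 18 alternatives.

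The cytoskeletal list had 18 of 36 tested members higher and 5 lower, with a median of 0.40. Without alone replicate 1 or without alone replicate 3, 11 were higher. Besides Add2, the higher genes included Arpc1b, a subunit of the actin-branching ARP2/3 complex, at 344, 309 and 289.6 alone and 876, 742 and 628 with monocytes. Msn, which links actin to the membrane, rose 2.07-fold, and Tpm1, tropomyosin, 1.72-fold. Myh14, a non-muscle myosin heavy chain of epithelia, fell from 247, 191 and 222 to 82.7, 62.7 and 86.2, a difference of -1.52 on the log2 scale (SE 0.16, adjusted p = 4.06e-05). Add3, a related adducin subunit, fell 1.97-fold while Add2 rose. Among intermediate filaments, Vim, the mesenchymal filament vimentin, rose from 135, 278 and 216 to 1398, 1418 and 928 (6.10-fold, adjusted p = 2.41e-05), and Lmna, lamin A/C, rose 2.69-fold. Krt20, an intestinal and gastric keratin, fell from 268, 148 and 217 to 60.9, 80.6 and 122.

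**Figure D2:**
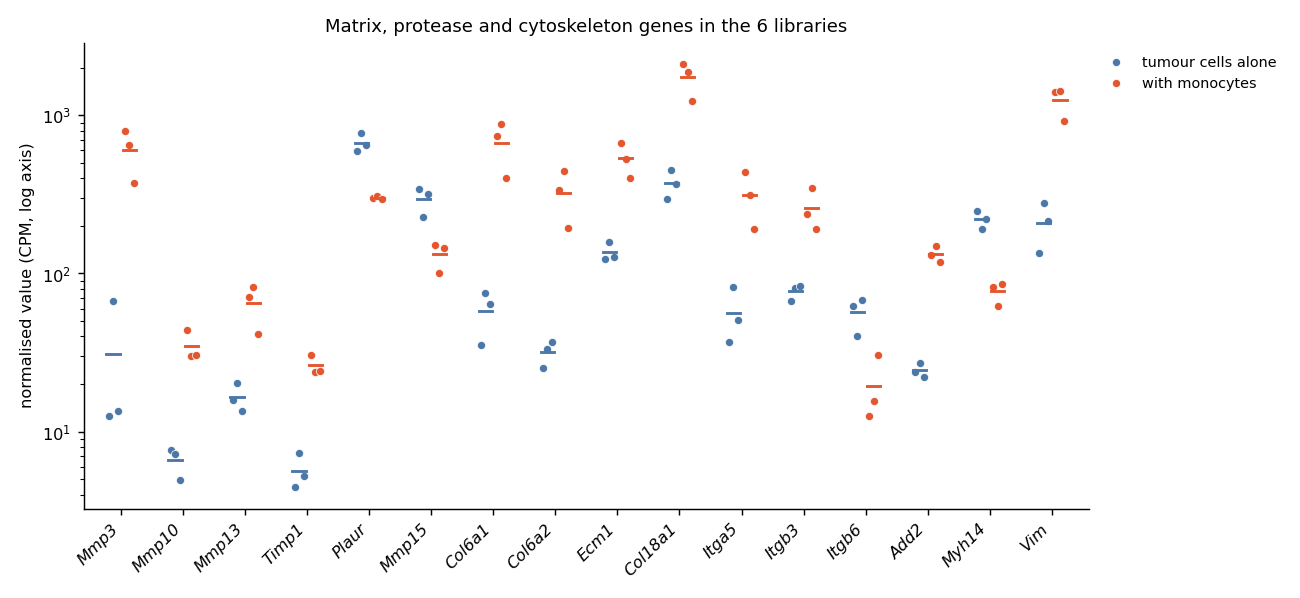
Normalised values (CPM, log axis) of 16 matrix, protease and cytoskeleton genes; points are the 3 libraries of each group (replicates 1 to 3 from left to right) and horizontal lines are means. Mmp3 lies at 797, 652 and 373 with monocytes and 12.5, 67.4 and 13.4 alone, and Plaur, Mmp15, Itgb6 and Myh14 are lower with monocytes.

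Hypoxia-inducible genes outside glycolysis were often higher. Of 31 tested, 15 were higher and 0 lower, with a median of 0.63, and 12 of the calls held in every alternative. The promoters of 3 of them are shown because the core of the hypoxia response element, ACGTG on either strand, lies within them and the genes rose together. Each stretch is the 250 bases before the RefSeq start on the gene's strand (GRCm38.p6), with the matches in capitals.
Bnip3: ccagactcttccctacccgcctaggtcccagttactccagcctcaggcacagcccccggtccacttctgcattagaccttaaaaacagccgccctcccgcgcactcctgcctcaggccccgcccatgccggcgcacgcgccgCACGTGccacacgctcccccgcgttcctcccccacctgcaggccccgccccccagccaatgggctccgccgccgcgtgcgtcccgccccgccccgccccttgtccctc
P4ha1: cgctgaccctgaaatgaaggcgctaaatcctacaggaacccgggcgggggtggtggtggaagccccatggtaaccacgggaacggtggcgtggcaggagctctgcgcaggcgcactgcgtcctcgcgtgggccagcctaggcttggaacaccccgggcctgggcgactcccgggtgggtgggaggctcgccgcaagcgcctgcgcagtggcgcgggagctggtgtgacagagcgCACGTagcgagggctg
Egln1: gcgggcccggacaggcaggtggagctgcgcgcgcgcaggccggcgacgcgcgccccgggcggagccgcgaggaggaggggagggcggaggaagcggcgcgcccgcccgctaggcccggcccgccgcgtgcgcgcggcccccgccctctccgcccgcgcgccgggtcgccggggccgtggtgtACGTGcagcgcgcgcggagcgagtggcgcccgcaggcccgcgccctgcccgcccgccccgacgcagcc
These lie at chr7:138909507-138909756 on the minus strand, chr10:59323046-59323295 on the plus strand and chr8:124949255-124949504 on the minus strand. Of the 15 hypoxia genes called higher, 12 had a window, and the core was in 12 of their 18 windows (66.7%). It was in 3102 of 12518 windows (24.8%) of all genes. The list was made up of hypoxia-inducible genes, and its members not called higher were not searched as a set. Whether the share goes with the rise was thus not tested. In Bnip3 the matches on both strands overlap as CACGTG, which also spells an E-box.

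P4ha1, a prolyl hydroxylase that matures collagen, rose from 36.7, 71.6 and 50.2 to 223, 247 and 185, a difference of 2.09 on the log2 scale (SE 0.24, adjusted p = 6.57e-05). Angptl4, a secreted inhibitor of lipoprotein lipase, rose from 122, 154 and 151 to 761, 759.6 and 514 (4.72-fold). Ak4, a mitochondrial adenylate kinase, rose 4.25-fold. Egln1, the oxygen sensor that marks HIF for destruction, rose from 86.2, 102 and 91.7 to 240.3, 189 and 197, and all 3 monocyte libraries were above all 3 grown alone. Bnip3, a mitophagy receptor, named here after its values were seen, rose from 9.08, 19.5 and 14.5 to 48.7, 71.4 and 80.7. With limma-voom 1 was lower. Hypoxia genes that did not pass the test include Vegfa, the endothelial growth factor, which was named after its values were seen and measured 272, 465 and 229 alone and 273, 287 and 224 with monocytes (adjusted p = 0.428), and Hif1a, the factor itself, 331, 493 and 419 and 383, 634 and 442 (adjusted p = 0.533). Both pairs of groups overlapped.

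Of 21 tested transcription and splicing factors of the epithelial and mesenchymal states, 4 were higher, 10 lower and 7 did not pass, with a median of -0.74. Snai1, a repressor of Cdh1 transcription, measured 0.692, 1.06 and 0.766 alone and 8.51, 4.17 and 3.72 with monocytes, a difference of 2.62 on the log2 scale (SE 0.45, adjusted p = 0.000915). Zeb1, a second repressor of epithelial genes, rose from 6.00, 15.4 and 16 to 56.2, 51.8 and 28.9 (3.85-fold), and Runx2, a bone and invasion-related factor, rose 2.35-fold. The groups of these 3 genes did not overlap. Tfcp2l1 fell from 204, 152 and 222 to 33.1, 24.9 and 43.4, a difference of -2.53 on the log2 scale (SE 0.21, adjusted p = 8.28e-06). Ehf, an epithelial ETS factor, fell from 296, 206 and 330.2 to 69.5, 71.6 and 130.1 (3.14-fold), and Esrp2, a splicing regulator of epithelia, 2.24-fold. These 3 lower genes kept their calls in every alternative.

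Genes of gastric, intestinal and hepatic identity were often lower. Lung adenocarcinoma cells are known to take up such identities when lung lineage factors are lost. Whether that applies to these cells was not tested. Of 26 tested, 15 were lower and none higher, with a median of -1.23, and 12 calls held in every alternative. Muc4, a membrane mucin that can bind ERBB receptors, measured 149, 66.8 and 138 alone and 18.8, 23.8 and 28.6 with monocytes. No monocyte library reached the lowest library grown alone, and the difference was -2.25 on the log2 scale (SE 0.33, adjusted p = 0.000343). Pigr, which carries immunoglobulin A across epithelia, fell from 59.9, 18.1 and 44.4 to 2.19, 3.29 and 7.85, 9.48-fold lower. Muc1, another membrane mucin, fell from 1724, 1408 and 1603 to 642, 539.7 and 879.6, and Lgals4, an intestinal galectin, from 50.5, 38.4 and 43.97 to 10.6, 9.99 and 21.6. Monocyte replicate 3 had the highest value of its group for all 4 genes. Of 8 epithelial markers 3 were lower, and 5 without monocyte replicate 3, and none higher. Epcam, the epithelial adhesion molecule, measured 659.8, 494 and 543 alone and 351, 277 and 531 with monocytes (adjusted p = 0.072), with overlapping groups.

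Lung lineage genes were split. Of 17 tested alveolar and airway genes, 5 were higher and 5 lower, and the lower count was 3 without monocyte replicate 1. Aqp5, a water channel of type I alveolar cells, rose from 40.1, 40.1 and 45.7 to 84.7, 96.9 and 103 (2.26-fold). Cav1, the caveolae protein abundant in the same cells, rose from 12.5, 26.1 and 12.2 to 99.3, 97.3 and 65.4 (5.42-fold). Cav2, a related caveolin in the same list, was called lower, at -0.59 on the log2 scale. Foxj1, the master factor of motile cilia, fell from 23.3, 18.5 and 23.7 to 5.49, 2.49 and 4.94, a difference of -2.41 on the log2 scale (SE 0.32, adjusted p = 0.000171). Sftpd, surfactant protein D, fell from 46.96, 22.6 and 38.6 to 3.27, 2.53 and 9.95; its difference was -2.99, and -3.58 without monocyte replicate 3.

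Enzymes of drug and xenobiotic metabolism were more often lower. Of 55 tested, 16 were lower (29.1%, beside 12.7% of all genes) and 7 higher (12.7%, near the 14.7% of all genes). The median was -0.98, and the lower count was 10 without alone replicate 3. Ugt2b34, a glucuronosyltransferase, measured 32.9, 33.5 and 31.9 alone and 1.43, 1.40 and 1.83 with monocytes. Both groups were tight, and it was 21.2-fold lower. Cyp1b1, a cytochrome P450 that is a target of the aryl hydrocarbon receptor, fell from 505, 407 and 474 to 139, 163 and 180.2, and Ahr, the receptor itself, from 167, 205 and 203 to 80.6, 105 and 102. Cyp2s1 fell 4.37-fold and Cyp3a13 3.39-fold, both cytochrome P450 genes. In the other direction, Akr1c18, an aldo-keto reductase that inactivates progesterone, rose from 0.602, 0.159 and 0.376 to 8.24, 6.34 and 6.37, a difference of 4.39 on the log2 scale (SE 0.51, adjusted p = 6.66e-05). Several of these genes belong to families of near-identical sequence, whose reads the authors' counting could have split.

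Glutathione and antioxidant genes changed in both directions. Of 45 tested, 16 were lower and 10 higher, with a median of -0.20. Gstm1, a glutathione transferase of the Mu family on chromosome 3 (108012255 to 108017973), measured 633, 526 and 578 alone and 134, 123 and 194 with monocytes, a difference of -1.97 on the log2 scale (SE 0.20, adjusted p = 2.79e-05). It belongs to a family of similar neighbouring genes, so its own level is uncertain. Gclc, the catalytic subunit that limits glutathione synthesis, fell from 299, 376 and 307 to 111, 150.3 and 138 (2.46-fold), and Cat, catalase, 1.56-fold. Gsta4, which detoxifies lipid aldehydes, fell 3.49-fold. Sod3, the extracellular superoxide dismutase, went up, from 3.59, 7.95 and 4.46 to 72.2, 73.8 and 46.2 (12.5-fold, adjusted p = 9.67e-06). Prdx4, a peroxiredoxin of the endoplasmic reticulum, rose from 28.8, 25.7 and 25.6 to 69.5, 68.4 and 66.8, and Keap1, which targets NRF2 for degradation, rose 1.91-fold.

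**Figure D3:**
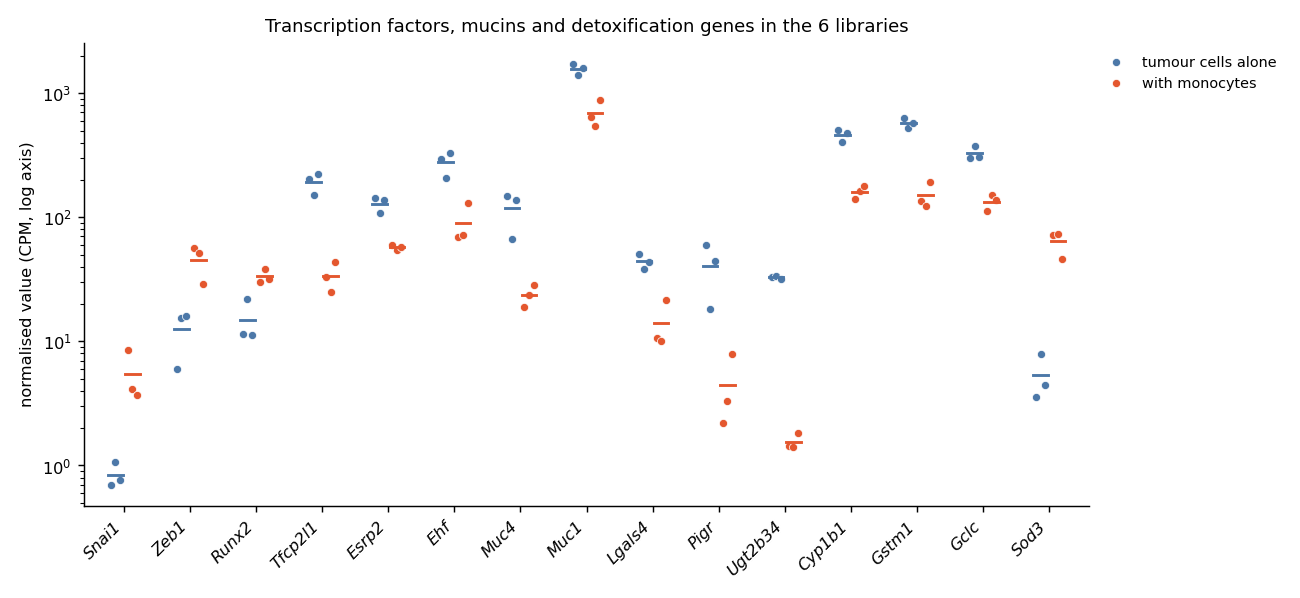
Normalised values (CPM, log axis) of 15 transcription factor, mucin and detoxification genes; points are the 3 libraries of each group (replicates 1 to 3 from left to right) and horizontal lines are means. Snai1, Zeb1, Runx2 and Sod3 are higher with monocytes and the other 11 genes are lower, and the groups of none of them overlap.

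The list of FGF and EGF receptors, their ligands and ERK feedback genes had more members lower than higher. Of 38 tested members of the FGF, EGF and ERK feedback list, 14 were lower and 8 higher. The higher count was 5 without alone replicate 1, alone replicate 3, TRM replicate 2 or monocyte replicate 1, and 4 without monocyte replicate 2. Spry1, a feedback inhibitor of receptor tyrosine kinases, measured 539, 427 and 511 alone and 102, 95.97 and 158 with monocytes. The groups were far apart, with a difference of -2.08 on the log2 scale (SE 0.22, adjusted p = 3.47e-05). Fgfr2, the receptor of epithelial FGFs, fell from 102, 59.5 and 104 to 16.2, 16.6 and 41.2 (3.83-fold). Erbb3, the neuregulin receptor, fell from 297, 228 and 316 to 94.9, 84.7 and 146, and Dusp16, a phosphatase of JNK and p38, 2.28-fold. Fgfrl1 and the phosphatase gene Dusp7, in the same list, were higher, by 1.01 and 0.75 on the log2 scale. Among ligands, Fgf2 rose from 12.7, 30.6 and 12.7 to 95.3, 109 and 73.6, a difference of 2.43 on the log2 scale (SE 0.32, adjusted p = 0.000161). Btc, betacellulin, a ligand of EGFR and ERBB4, rose from 14.8, 25.5 and 12.5 to 39.7, 50.7 and 38.9 (2.55-fold).

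Immediate early and stress genes, which cells switch on within minutes of a signal or of dissociation, moved down in the same libraries. Of 28 tested, 13 were lower and 1 higher, with a median of -0.52, and 7 were lower without alone replicate 3. Jun, a subunit of AP-1, fell from 3565, 2746 and 3561 to 1387, 1343 and 1720, and Nr4a1, an orphan nuclear receptor, from 1191, 1325 and 1598 to 376, 607 and 528; both were named after their values were seen. These genes also record how cells were handled before lysis. Their part in the lower calls of the FGF, EGF and ERK feedback list was not tested.

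Developmental pathways changed gene by gene. In the WNT list, 11 of 28 tested members were lower (39.3%) and 3 higher (10.7%), beside 12.7% and 14.7% of all genes. Leaving out alone replicate 1 gave 6 lower, alone replicate 3 gave 4, monocyte replicate 1 gave 7 and monocyte replicate 2 gave 6. Lgr4, a receptor of R-spondins that strengthens WNT signals, fell from 79.2, 69.2 and 83.8 to 24.1, 21.5 and 39.5 (2.82-fold). Fzd5, a WNT receptor, fell 2.53-fold, and Rnf43, which removes such receptors from the surface, 1.95-fold. Tcf7, a nuclear effector of the pathway, rose from 6.85, 5.23 and 6.68 to 31.3, 25.2 and 21.1, a difference of 2.04 on the log2 scale (SE 0.27, adjusted p = 0.000162). In the Notch list, 6 of 19 were higher (31.6%, beside 14.7% of all genes) and 3 lower (15.8%, near the 12.7% of all genes). The higher count was 3 without monocyte replicate 1 and 2 without monocyte replicate 2, and the lower count was 1 without alone replicate 3. The ligand Dll1 rose from 7.96, 4.46 and 8.67 to 44.7, 35.1 and 24.1 (4.97-fold), the ligand Jag2 rose 2.17-fold, and Dtx4, a ubiquitin ligase of the pathway, fell 1.87-fold.

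Of 24 tested genes of TGF-beta and activin signalling, 4 were higher (16.7%) and 4 lower (16.7%), shares near the 14.7% and 12.7% of all genes, and 2 were higher without monocyte replicate 1. Inhba, the subunit of activin A, rose from 31.03, 40.6 and 32.7 to 109, 111 and 64.6 (2.67-fold), and Tgfb1 from 40.9, 47.5 and 42.4 to 135, 96.6 and 66.7. Acvr2a, a receptor of activin, fell from 92.4, 103 and 116 to 32.6, 65.9 and 51.8, and Tgfbr1, a TGF-beta receptor, 1.89-fold. Id3, an inhibitor of helix-loop-helix factors and a BMP target, rose from 34.6, 78.9 and 62.9 to 351, 424 and 257, a difference of 2.60 on the log2 scale (SE 0.27, adjusted p = 3.47e-05), and Id1, its relative, rose 2.82-fold. In the YAP-TEAD list, 3 of 25 tested members were higher and 4 lower, shares near those of all genes, and DESeq2 called 7 lower. Its members diverged. Axl, a receptor tyrosine kinase, rose from 92.7, 251 and 215 to 1323, 1032 and 702, while Ccn2, a matricellular protein, fell from 2213, 2137 and 2238 to 732, 654 and 1194, and Ankrd1 from 431, 589 and 566 to 104, 185 and 265. In all 3 genes the groups did not overlap.

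Genes of the insulin and IGF axis changed in both directions. Of 21 tested, 6 were lower (28.6%, beside 12.7% of all genes) and 5 higher (23.8%, beside 14.7%). Irs1, an adaptor of the insulin and IGF1 receptors, fell from 32.6, 24.4 and 31.1 to 5.22, 10.7 and 12.7 (3.27-fold), and Irs2, its relative, from 512, 545 and 561 to 229, 299 and 197, a difference of -1.18 on the log2 scale (SE 0.15, adjusted p = 0.000135). Insr, the insulin receptor, fell 1.74-fold. Igfbp4, a secreted IGF-binding protein, rose from 1398, 1008 and 1379 to 3346, 2345 and 2637, and Igfbp7, a related secreted protein, rose 1.95-fold. Of 17 circadian clock genes, 5 were lower (29.4%, beside 12.7% of all genes) and 0 higher. Over the alternatives, 4 to 7 were lower. Per2, a core repressor of the clock, fell from 37.8, 47.8 and 52.1 to 10.3, 20.8 and 14.9 (3.09-fold).

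**Figure D4:**
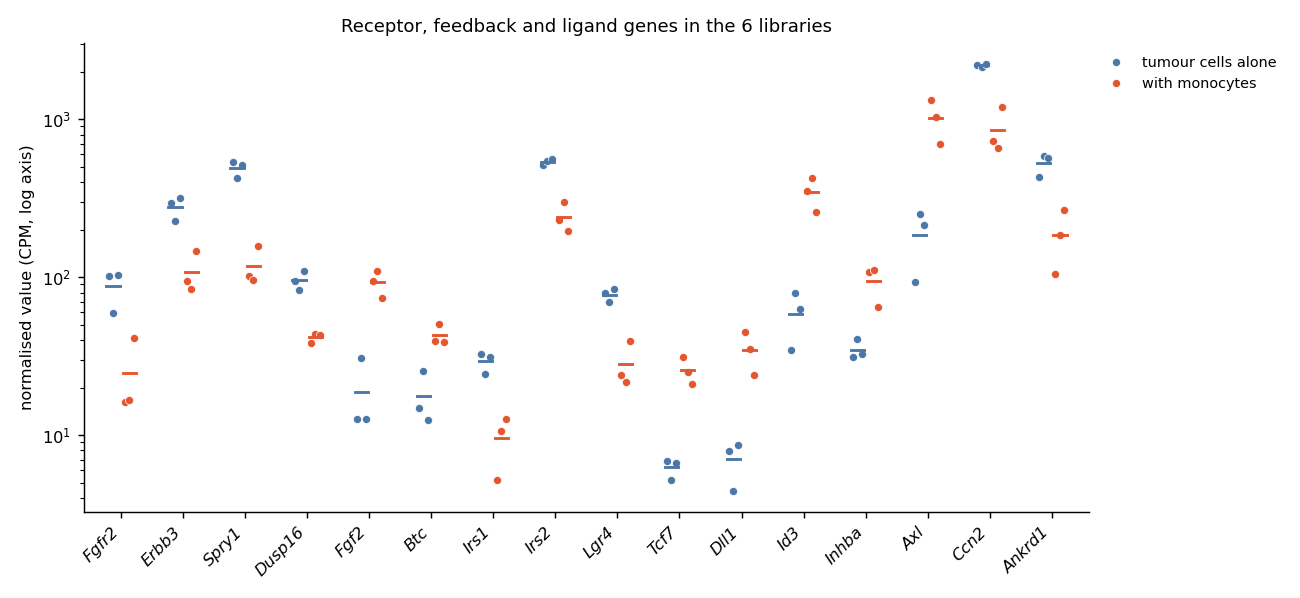
Normalised values (CPM, log axis) of 16 signalling genes; points are the 3 libraries of each group (replicates 1 to 3 from left to right) and horizontal lines are means. Fgfr2, Erbb3, Spry1, Dusp16, Irs1, Irs2, Lgr4, Ccn2 and Ankrd1 are lower with monocytes and the other 7 genes are higher, with no overlap between groups.

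Cytokine genes changed in both directions. Of 39 tested NF-kappaB targets, cytokines and chemokines, 8 were higher and 8 lower (20.5% each, beside 14.7% and 12.7% of all genes). The higher count was 5 without monocyte replicate 1 or with limma-voom, and the lower count was 4 without alone replicate 3 and 5 without TRM replicate 2. Csf2, the growth factor GM-CSF, rose from 34.5, 24.98 and 23.1 to 61.5, 61.7 and 69.6 (2.37-fold). Il1a, an alarmin, rose from 44.7, 47.8 and 41.8 to 76.9, 109.8 and 106, and Mif, a cytokine that inhibits macrophage migration, rose 3.04-fold. Cxcl5, which attracts neutrophils, fell from 426, 326 and 472 to 167, 103 and 168, a difference of -1.50 on the log2 scale (SE 0.28, adjusted p = 0.00151). Ccl20, the ligand of CCR6, fell 2.25-fold, and Il33, an epithelial alarmin, fell from 32.6, 24.02 and 27.4 to 3.86, 13.1 and 12.9. The monocyte growth factor Csf1 measured 78.9, 116 and 102 alone and 121, 84.5 and 68.5 with monocytes and did not pass the test (adjusted p = 0.702). Ccl2, the main attractant of monocytes, was low in both groups, at 0.156, 0.340 and 0.346 and 1.38, 0.230 and 0.484. Interferon-stimulated genes had 6 of 38 higher (15.8%) and 4 lower (10.5%), near the shares of all genes (14.7% and 12.7%), and 3 were higher without monocyte replicate 2.

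Prostaglandin genes changed at several steps. Ptgs1, the constitutive cyclooxygenase (COX-1), rose from 17.02, 31.1 and 23.1 to 107, 143 and 84.96, a difference of 2.24 on the log2 scale (SE 0.25, adjusted p = 4.52e-05). Slco2a1, which takes prostaglandins into the cell, rose from 16.5, 11.6 and 13.1 to 78.02, 69.2 and 41.5 (4.47-fold). Abcc4, which exports them, fell from 162, 168 and 162 to 36.9, 61.1 and 92.9, and Ptger4, a receptor of prostaglandin E2, from 171, 154 and 198 to 46.9, 71.6 and 69.4 (2.82-fold). The groups of these 4 genes did not overlap. Of 16 tested members of the list, 4 were higher and 5 lower. The lower count was 2 without alone replicate 1 or 2, and 3 with edgeR, with only the groups compared, or without alone replicate 3, monocyte replicate 1, TRM replicate 2 or TRM replicate 3.

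Repair and chromatin genes were more often higher than lower. Of 38 tested double-strand break and Fanconi genes, 14 were higher and 3 lower, with a median of 0.63. In the lists set aside, 92 of 104 mitosis genes and 57 of 76 replication genes were higher. Whether the repair genes changed apart from those was not tested. Fancd2, which is loaded onto damaged forks, rose from 3.50, 4.96 and 2.84 to 28.1, 21.04 and 12.6 (5.32-fold), Fanca, of the Fanconi core complex, 3.12-fold, and Rad54l, a DNA translocase of repair, 2.95-fold. Prkdc, the kinase of end joining, fell from 32.5, 38.2 and 32.9 to 19.1, 20.96 and 12.01, a difference of -1.03 on the log2 scale (SE 0.22, adjusted p = 0.004). Of 41 chromatin genes, 15 were higher (36.6%, beside 14.7% of all genes) and 6 lower (14.6%, near the 12.7% of all genes). Hmga1, an architectural protein of embryonic and tumour cells, rose from 44.6, 109.5 and 44.9 to 367.7, 229 and 187. Cbx7, a polycomb reader, fell from 29.6, 36.98 and 31.8 to 8.95, 9.32 and 15.3 (3.01-fold), and Dnmt3a, a de novo DNA methyltransferase, from 165, 176 and 183 to 103, 104 and 111.

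Of 29 BCL2 family and caspase genes, 4 were higher (13.8%, beside 14.7% of all genes) and 6 lower (20.7%, beside 12.7%), and 2 were higher without alone replicate 3 or without monocyte replicate 2. Bcl2 itself, an inhibitor of apoptosis, fell from 63.4, 64.3 and 70.2 to 36.7, 36.4 and 37 (1.80-fold), and Bmf, a promoter of apoptosis, 1.87-fold. Bok, a pore-forming relative, rose from 93.01, 101 and 79.6 to 283, 225 and 198. In the p53 list 3 of 24 were higher and 4 lower, shares near those of all genes. Phlda3, an inhibitor of AKT, rose from 10.2, 15.3 and 14.2 to 75.05, 69.2 and 51.4, a difference of 2.30 on the log2 scale (SE 0.24, adjusted p = 3.2e-05). Trp53inp1, a stress protein, fell from 267, 303 and 339 to 43.3, 126 and 116 (3.51-fold).

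Among other programmes, 7 of 20 arginine and polyamine genes were higher and 1 lower. Gatm, the first enzyme of creatine synthesis, rose from 10.95, 23.1 and 18.9 to 81.4, 81.5 and 65.9 (4.51-fold), and Srm, spermidine synthase, 2.12-fold. Sat1, which starts polyamine breakdown, fell from 514, 470.3 and 542 to 133, 287 and 339. Of 22 S100 and annexin genes, 8 were higher, among them Anxa2, a calcium-dependent membrane protein, at 881, 1150 and 799.9 alone and 1955, 2234 and 2186 with monocytes. The single lower call, Anxa4, another annexin, was lost with edgeR, with only the groups compared, without any one of the libraries grown alone, without monocyte replicate 1 or 2 and without TRM replicate 2 or 3, and 3 were lower without monocyte replicate 3. Proteasome genes had 13 of 41 higher and none lower, and 8 without alone replicate 1 or 3. Changes were small, such as 0.64 on the log2 scale for Psmd2 and 0.81 for Pomp, an assembly factor. Cholesterol synthesis genes had 2 of 25 higher and 0 lower, a share of 8% higher beside 14.7% of all genes; 1 was higher without alone replicate 3 or without monocyte replicate 3.

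Of 43 tested ephrins, semaphorins and their receptors, 7 were higher (16.3%) and 5 lower (11.6%), shares near the 14.7% and 12.7% of all genes. Efnb1, an ephrin ligand, rose from 69.8, 70.1 and 71.8 to 198, 174 and 127 (2.32-fold), and Sema7a, a membrane-anchored semaphorin that binds integrins, rose 2.08-fold. Epha1, an ephrin receptor of epithelia, fell from 78.9, 60.8 and 68.7 to 40.9, 27.1 and 44.95, a difference of -0.91 on the log2 scale (SE 0.21, adjusted p = 0.00626). Of 48 enzymes that build mucin-type and sialylated glycans, 10 were higher (20.8%) and 9 lower (18.75%), beside 14.7% and 12.7% of all genes. In that list 4 were lower when alone replicate 1 was left out, and 5 when alone replicate 3 or monocyte replicate 1 was. Galnt3, which starts O-glycans on mucins, fell from 195, 203 and 192 to 94.2, 118 and 138 (1.70-fold), while Galnt1, a related enzyme, rose 2.44-fold. Of 22 genes of fatty acid oxidation, 5 were higher (22.7%, beside 14.7% of all genes) and 0 lower. Hadha, a subunit of the mitochondrial trifunctional protein, rose from 67.98, 73.2 and 73.5 to 104, 125 and 115 (adjusted p = 0.0023), and Acads, which oxidises short chains, rose 1.92-fold. The oncogene Myc measured 505, 925 and 722 alone and 488, 566 and 481 with monocytes and did not pass the test (adjusted p = 0.147).

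A pair of genes that also mark macrophages rose. Mrc1, the mannose receptor, measured 4.98, 5.37 and 5.03 alone and 34.6, 47.8 and 35.2 with monocytes, a difference of 2.92 on the log2 scale (SE 0.24, adjusted p = 8.28e-06). F13a1, coagulation factor XIII A, named after its values were seen, rose from 0.825, 0.747 and 1.31 to 17, 15.98 and 7.21 (13.4-fold). Both kept their calls in all alternatives. The summed level of the macrophage markers was also higher, but it includes Mrc1 and so is not separate evidence. The median log2 difference of the 11 tested macrophage markers was -0.09. Over the marker lists, 5 of 11 tested macrophage markers and 7 of 13 tested monocyte markers had a positive difference. Csf1r, Spi1 and Cd68 had overlapping groups at the values given above, and Lyz2, lysozyme, measured 6.80, 26.02 and 34.1 and 18.8, 15.98 and 30.5. Chil3, a macrophage marker, was called lower at -3.63 on the log2 scale, but 0 of the 2 lower macrophage calls held in all alternatives. Ptprc, the pan-leukocyte marker CD45, measured 3.46, 1.43 and 0.916 alone and 0.135, 0.565 and 0.0210 with monocytes, and its call as lower was lost in 10 of 18 alternatives. Whether added cells contributed to Mrc1 and F13a1 was not tested.

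The co-culture with TRMs allows a second question, whether the kind of added cell mattered. Several lists moved alike against cells grown alone. With TRMs, 17 of 35 proteases and inhibitors and 23 of 56 matrix proteins were higher. So were 22 of 31 hypoxia genes and 16 of 36 cytoskeletal genes. There 15 of 26 gastric, intestinal and hepatic genes and 14 of 38 in the FGF, EGF and ERK feedback list were lower. Calls in these lists were thus not confined to the monocyte co-culture. Other lists had fewer calls with TRMs than with monocytes, such as 4 of 38 repair genes higher and 7 of 28 immediate early genes lower. The share of all genes called with TRMs against cells grown alone is not given here, so these counts have no background beside them. Whether the fewer calls reflect fewer calls over all genes was not tested. The contrasts share the monocyte libraries, or the libraries grown alone, so each is given by its own values. Between the co-cultures 49 of 12326 genes (0.398%) were called, 9 higher (0.0730%) and 40 lower (0.325%) with monocytes. The number was 0 without TRM replicate 2, where 1173 genes had an unadjusted p under 0.05, and 134 without monocyte replicate 3, and DESeq2 called 336 and edgeR 44. Sod3 measured 14.5, 15.2 and 9.39 with TRMs, below the monocyte libraries at 72.2, 73.8 and 46.2, and the log2 difference between the co-cultures was 2.30 (SE 0.31, adjusted p = 0.00846). Ptgs1 measured 27, 34.9 and 42.6 with TRMs, a difference of 1.67 (SE 0.25, adjusted p = 0.0148). Naaa, a lysosomal amidase that breaks down lipid amides, measured 19.2, 30.4 and 21.2 in cells alone, 22.4, 28.02 and 23.1 in the TRM co-culture and 80.6, 86.9 and 47.3 in the monocyte co-culture. Its TRM libraries lay within the range of the libraries grown alone.

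Other genes were lower with monocytes than in either of the remaining groups. Egfr, the EGF receptor, measured 9.12, 7.18 and 8.67 in cells alone, 11.7, 11.8 and 9.59 in the TRM co-culture and 3.05, 3.62 and 4.52 in the monocyte co-culture, and the co-cultures differed by -1.58 (SE 0.27, adjusted p = 0.0283). Ppp1r3b, which directs a phosphatase to glycogen, measured 15.95, 15.6 and 17.7, 16.2, 14.5 and 17.1 and 5.22, 7.35 and 5.53 in the same order. Ephb2, an ephrin receptor, measured 17.6, 18.9 and 19.2, 24.3, 22.2 and 17.7 and 7.86, 11.9 and 8.43, and Csf3, the growth factor G-CSF, 17.3, 22.8 and 26.3, 35.8, 32.9 and 29.7 and 16.5, 11.3 and 14.1. In these 4 genes no monocyte library overlapped either other group, but the difference of Csf3 from cells grown alone lost its call in 5 of 18 alternatives, among them without alone replicate 3 (adjusted p = 0.156). A further set was above the level of cells grown alone in both co-cultures, with less with monocytes. Il1a measured 263, 238 and 223 with TRMs, above its 76.9, 109.8 and 106 with monocytes, a difference of -1.32 (SE 0.15, adjusted p = 0.00573). Egln1 measured 421, 458 and 486 with TRMs and 240.3, 189 and 197 with monocytes, and Ecm1 1222, 1236 and 958 and 671, 531 and 401. Without TRM replicate 2 none of these genes passed the test between the co-cultures (adjusted p = 0.0509 or more).

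**Figure D5:**
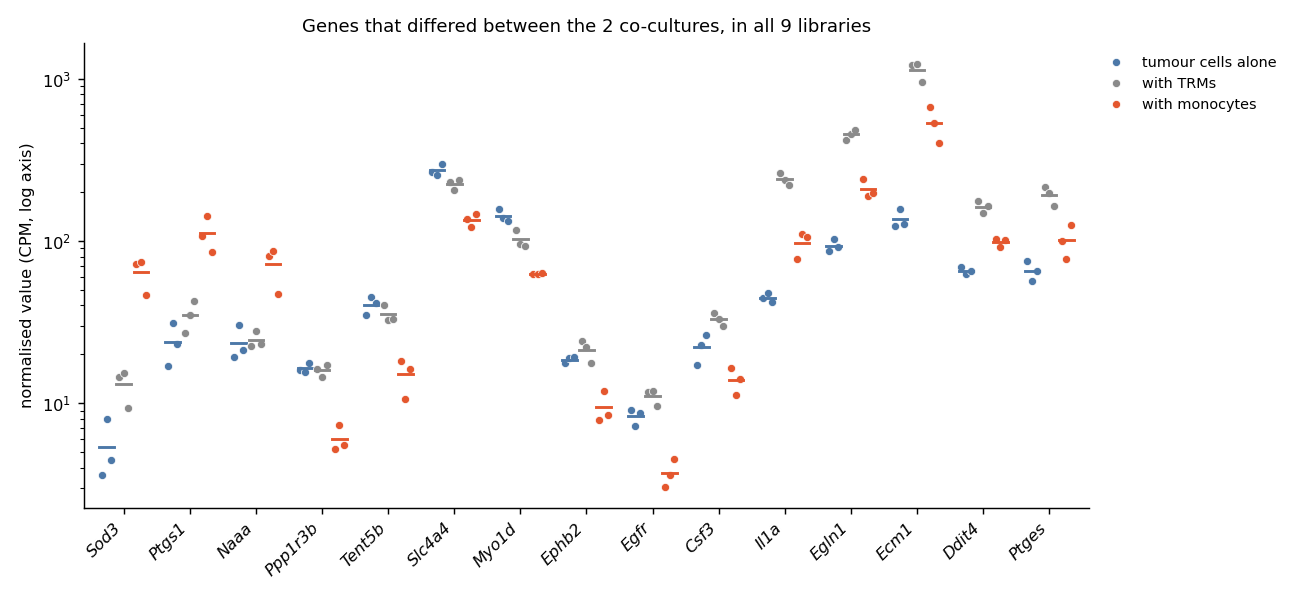
Normalised values (CPM, log axis) of 15 named genes called between the co-cultures, in tumour cells grown alone, with TRMs or with monocytes; points are the 3 libraries of each group (replicates 1 to 3 from left to right) and horizontal lines are means. Sod3, Ptgs1 and Naaa are highest with monocytes. Il1a, Egln1, Ecm1, Ddit4, Ptges, Egfr and Csf3 are highest with TRMs, where no TRM library overlaps either other group.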

How the data were processed

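RNA-seq of sorted tumour cells was deposited as 1 table of 12339 genes by 9 libraries. Per the submitters' processing notes, reads were processed with STAR 2.5 and edgeR on mm10; the counting tool, annotation and strand setting were not stated. Without strand, overlapping antisense genes cannot be told apart. The table's values are a signal that the authors deposited as CPM of a scaled library size. Divided by a scaling step estimated for each library, all 111051 values (100%) are whole reads plus 0.5 within a tolerance of 1e-06, so reads were recovered. In the authors' deposited tables, which hold log2 fold changes, a likelihood ratio score and p-values, 3123 of 11081 genes pass 0.05 for this comparison, and 2947 of them were also called here, in the same direction.

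The log2 of each value was fitted in limma 3.58.1 (R 4.3.3) over all 9 libraries, with 6 residual degrees of freedom and Benjamini-Hochberg adjustment over 12326 genes. edgeR's filterByExpr (minimum count 10, minimum total 15) removed 13 genes. edgeR 4.0.16 on the recovered reads called 3255 genes. DESeq2 1.42.0, limma-voom, an added 1, other filters, library totals, only the compared groups, a replicate block and leaving out each library were alternatives. The steps were tested on simulated data. Replicates of 1 group differed by a chi-square per gene of 21.1 to 90.6, so none was counted as a duplicate.

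The comparison and gene lists were chosen with earlier results of these data known. Named genes were, outside the lists set aside and predicted or sex-linked genes, the 15 largest folds and 10 smallest p-values in each direction (groups not overlapping, mean of at least 5), up to 4 called members of each list and direction, the 10 most significant genes in each direction called in both monocyte contrasts, and 13 genes chosen for the system. Others are marked where named. Positions are from GENCODE M21 (GRCm38), where 12243 symbols matched 1 gene, 61 none and 22 several. Promoters are from RefSeq GRCm38.p6, where 9765 genes matched.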

Additional observations from a re-analysis of the deposited data

Results flagged for a closer look

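For 15 named genes the monocyte and TRM co-cultures differed in limma's test of that difference, fitted over all 9 libraries. Of these, 3 were higher and 12 lower with monocytes. The log2 differences, monocyte minus TRM, were 2.30 for Sod3, 1.67 for Ptgs1 and 1.5 for Naaa. The lower genes were Egfr at -1.58, Ppp1r3b at -1.41, Il1a at -1.32, Tent5b at -1.26, Csf3 at -1.25 and Ephb2 at -1.20. Egln1 stood at -1.13, Ecm1 at -1.11, Ptges at -0.95, Slc4a4 at -0.73, Ddit4 at -0.71 and Myo1d at -0.69. Each of the 15 lost its call in at least 1 of 18 alternatives, always including the one without TRM replicate 2, and none changed sign.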

How the results depend on the processing

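Of 361 called genes that could be named, 274 kept their call in all 18 alternatives and 87 lost it in at least 1, with no change of sign; of all 3366 calls, 1896 were kept throughout. Leaving out 1 library gave 2239 to 3529 calls against tumour cells alone, with 942 (without alone replicate 3) to 1673 lower. Between the co-cultures, 49 genes were called, and leaving out 1 library gave 0 to 134, with 0 to 38 higher and 0 to 106 lower. There DESeq2 called 336 (139 higher, 197 lower), limma-voom 86 (29 higher), an added 1 gave 75 (19 higher), library totals gave 16 higher and only the compared groups 17 higher. The cause of these moves was not tested. Library totals changed the split against tumour cells alone to 1603 higher and 1758 lower.

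Nothing says that a replicate number links libraries across groups, and shared numbers were not treated as pairs. Deviations from the group means of same-numbered alone and monocyte libraries correlated at 0.148, -0.0246 and 0.0799. Those of alone and TRM libraries correlated at 0.429, 0.0845 and 0.134, and those of TRM and monocyte libraries at 0.173, 0.0389 and 0.209. Libraries that differed in both group and number ranged from -0.401 (alone replicate 1 with TRM replicate 3) to 0.265 (alone replicate 2 with TRM replicate 3). Whether the numbers mark a shared batch was not tested. With the replicate block, 3511 genes were called against tumour cells alone and 79 between the co-cultures (18 higher, 61 lower). The precision is limited by 3 libraries a group and, for genes with few reads, by counting error.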
